A study of Mus musculus with 24 samples.

Results

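The genes described here are 10 immediate early transcription factor genes, Egr1, Egr2, Egr3, Fos, Fosl1, Fosl2, Jun, Junb, Jund and Ier2, followed over substrates and times in E14 mouse embryonic stem cells (mESCs). They were found by their symbols, and each had 1 row among the 35022 genes counted in the experiment of PD03 removal and 1 row among the 48709 genes counted in that of CHIRON removal. E14 is an established mESC line, labelled 129m wt, so both experiments describe 1 line. Cells were grown for 12 h on soft or stiff StemBond hydrogels coated with fibronectin in 2i + LIF, which held 1 µM PD03, an inhibitor of the kinase MEK upstream of ERK, together with CHIRON at 3 µM, which inhibits GSK3 and so activates the Wnt pathway. At 0 h the cells of all 4 sets (soft and stiff, in both experiments) were still in 2i + LIF. For PD03 removal the medium was then changed to CHIRON + LIF, and for CHIRON removal to PD03 + LIF, and RNA was collected 2 h and 12 h later. Each of the 6 groups of an experiment had 2 libraries, except that stiff at 2 h after CHIRON removal had 1 usable library.

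Immediate early genes are transcribed within minutes of a signal without need of new protein. In the best known route, active ERK phosphorylates ternary complex factors of the ETS family, which sit with SRF on CArG boxes of these promoters, and the transcripts are then quickly degraded. EGR proteins are zinc finger factors that bind GC-rich sites, FOS and JUN proteins pair through leucine zippers to form AP-1, and IER2 is a small nuclear protein. In naïve mESCs, ERK signalling drives exit from self-renewal, which is why PD03 is part of the medium.

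Total counts were 16222196 to 26442153 in the 12 libraries of PD03 removal and 19393787 to 31111260 in the 11 libraries of CHIRON removal. The 12th library of CHIRON removal, stiff at 2 h, held 171333 counts, with 9 of the 10 genes at 0, and was left out. All 6 pluripotent stem cell markers (Pou5f1, Sox2, Nanog, Zfp42, Esrrb and Tfcp2l1) were above 1 CPM (counts scaled to the size of the library) in every library, with a summed level of 5490 to 6970 CPM in PD03 removal and 4530 to 4960 CPM in CHIRON removal. The summed level of 6 fibroblast markers was 1.03 to 2.57 CPM and 3.78 to 6.63 CPM, and that of 4 primitive endoderm markers 2.00 to 4.68 CPM and 3.17 to 6.00 CPM, so no listed marker of either was abundant. Replicates differed by 2.65 to 4.59 times the sampling noise in PD03 removal and by 5.87 to 58.5 times in CHIRON removal (chi-square per degree of freedom over genes), most for soft at 12 h. Levels are given as CPM after TMM normalisation within an experiment. Egr3 and Fosl1 in PD03 removal, and Egr2 and Egr3 in CHIRON removal, did not pass the filter on low counts, which left 8 of 10 genes tested in each.

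After PD03 removal, 4 of the 8 tested genes rose on soft hydrogels at 2 h (Egr1, Fos, Junb and Ier2), and the same 4 together with Egr2 and Fosl2 rose on stiff hydrogels. None of them fell, whereas Jun and Jund did not pass the test on either substrate. Over all 13423 genes tested, 1.96% were called on soft and 2.73% on stiff, in either direction (edgeR quasi-likelihood test, Benjamini-Hochberg adjusted p under 0.05). The median log2 fold change of the 8 genes was 0.64 on soft and 1.74 on stiff, beside -0.00171 and -0.00309 over all genes. From 2 h to 12 h, 4 genes fell on soft (Egr1, Egr2, Fos and Junb) and 5 on stiff (the same 4 and Jun), where 31.4% and 37.5% of all genes were called. At 12 h against 0 h only Ier2 was called on each substrate, beside 29.4% of all genes on soft and 38.4% on stiff. In bulk RNA, fewer responding cells and less RNA per cell cannot be told apart.

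**Figure D1:**
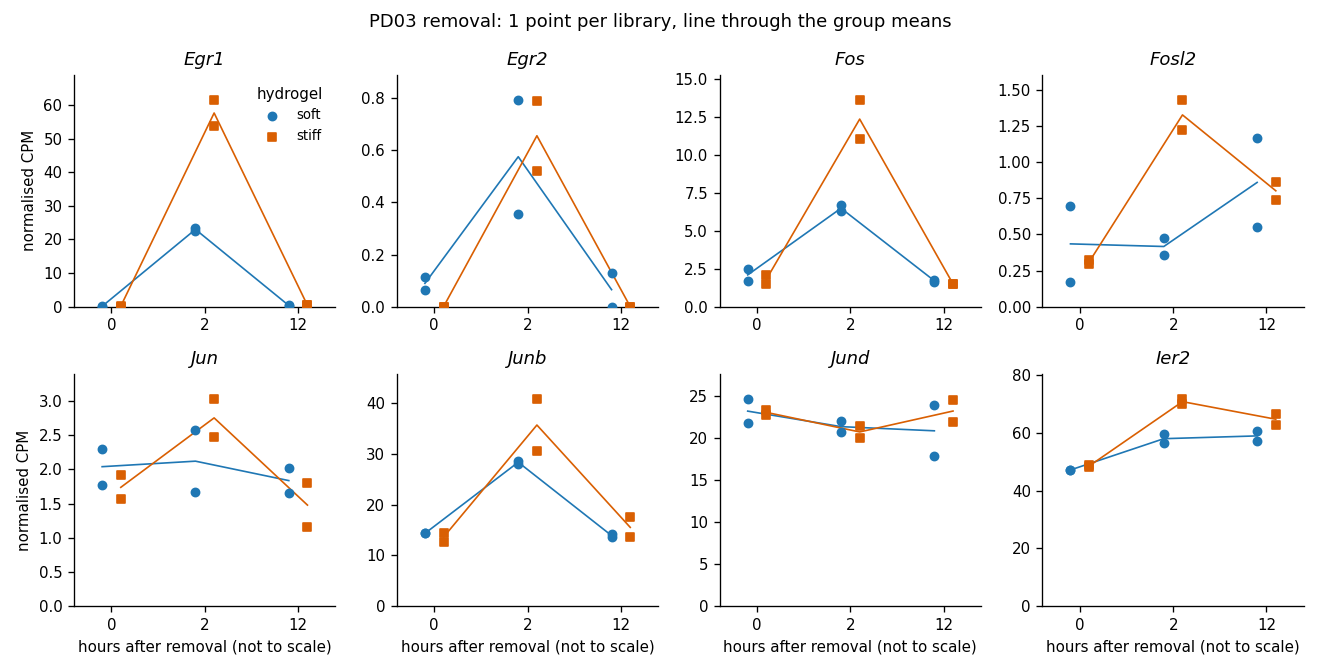
Normalised CPM (y axis, from 0, a scale for each gene) of 8 genes at 0, 2 and 12 h after PD03 removal (x axis, not to scale). Circles are soft and squares stiff libraries, 2 per group, and lines join group means. Egr1, Fos and Junb peaked at 2 h on both substrates, Egr1 at 22.5 and 23.5 CPM on soft and at 53.7 and 61.6 CPM on stiff, whereas Jund stayed between 17.8 and 24.6 CPM.

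Egr1 (chromosome 18, 34859823 to 34864984, plus strand, GRCm38) showed the largest fitted change of the 8 tested genes. Its level at 0 h was 0 and 0.19 CPM on soft and 0.26 and 0 CPM on stiff, which stood for 7 reads in all 4 libraries. At 2 h it was 22.5 and 23.5 CPM on soft and 53.7 and 61.6 CPM on stiff. All 2 h libraries lay far above all 0 h libraries, with no overlap. For 2 libraries against 2, the smallest exact p is 0.333, so a lack of overlap alone, here and below, is weak evidence. The share of all genes without overlap was not counted. Summed over replicates, 611 counts against 3 on soft gave a ratio of 253.9 (95% exact interval 86.5 to 1234, for counting error only), and 1680 against 4 on stiff a ratio of 513.9 (200.4 to 1888). In the fit its log2 fold change was 7.86 ± 0.36 (SE, n = 2 against 2, edgeR adjusted p = 1.8e-15) on soft and 8.90 ± 0.30 (adjusted p = 2.23e-19) on stiff. At 12 h the level was back at 0.069 and 0.59 CPM on soft and at 0.36 and 0.41 CPM on stiff. These values lay close to those of 0 h, with ratios of 3.70 (0.95 to 20.9) and 3.44 (0.99 to 15.0) over 0 h. Without stiff replicate 1 at 0 h, which held all 4 reads of that group, the difference between 12 h and 0 h on stiff was called (log2 fold change 5.56, adjusted p = 0.0219), against a group at 0 counts.

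The other EGR genes were rare transcripts. Egr2 (chromosome 10, 67535475 to 67542188, plus strand) had 2 and 1 counts on soft and 0 and 0 on stiff at 0 h, 5 and 10 on soft and 8 and 11 on stiff at 2 h, and at most 2 in a library at 12 h. Every library of 2 h lay above those of the other times, at 0.36 and 0.80 CPM on soft and 0.52 and 0.79 CPM on stiff. On stiff this was at least 3.88-fold higher than at 0 h, taking 3 counts per library for a group at 0 (adjusted p = 0.0073), and at 12 h it was at least 2.82-fold lower than at 2 h (adjusted p = 0.00209). On soft the ratio of 2 h to 0 h was 6.23 (95% exact interval 1.76 to 33.6), which did not pass the test (adjusted p = 0.204), and that of 12 h to 2 h was 0.12 (0.013 to 0.51, adjusted p = 0.0253). The rise on stiff was lost without stiff replicate 1 or 2 at 0 h or replicate 2 at 2 h. Alternatives that lost the fall on soft included those without replicate 1 at 12 h or replicate 2 at 2 h. Egr3 (chromosome 14, 70077203 to 70082614, plus strand) had at most 3 counts in any library of PD03 removal and was at 0 in 9 of the 12, too few for a comparison.

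Fos (chromosome 12, 85473890 to 85477273, plus strand), the founding member of its family, was detected in every library. Its level was 2.47 and 1.71 CPM on soft and 2.08 and 1.52 CPM on stiff at 0 h, 6.70 and 6.28 CPM on soft and 11.1 and 13.7 CPM on stiff at 2 h, and 1.65 and 1.76 CPM on soft and 1.51 and 1.48 CPM on stiff at 12 h. The groups of 2 h did not overlap with those of 0 h or 12 h on either substrate. It rose 3.08-fold on soft (log2 1.62 ± 0.23, adjusted p = 3.26e-05) and 6.95-fold on stiff (2.80 ± 0.21, adjusted p = 1.95e-10), and between 2 h and 12 h it fell by 1.92 ± 0.24 (log2, adjusted p = 6.22e-07) on soft and fell by 3.04 ± 0.23 (adjusted p = 4.33e-11) on stiff.

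The FOS-like genes were low. Fosl2 (chromosome 5, 32135801 to 32157842, plus strand), which encodes FRA2, was at 0.17 and 0.70 CPM on soft and 0.32 and 0.29 CPM on stiff at 0 h, and at 0.36 and 0.48 CPM on soft and 1.43 and 1.22 CPM on stiff at 2 h. On soft the groups overlapped (log2 fold change -0.03 ± 0.68, adjusted p = 0.992), whereas on stiff they did not (2.08 ± 0.55, adjusted p = 0.0301). At 12 h it stood at 0.55 and 1.17 CPM on soft and 0.86 and 0.74 CPM on stiff, where both libraries lay above those of 0 h (log2 fold change 1.37 ± 0.62, adjusted p = 0.0805). These values rest on 3 to 22 counts per library, and the call on stiff held in 4 of 10 alternatives. Those that lost it included leaving out either stiff library at 0 h or at 2 h, and DESeq2 (adjusted p = 0.150). Without soft replicate 2 at 0 h its 12 h level on soft was called as higher (log2 fold change 2.28, adjusted p = 0.0489). Fosl1 (chromosome 19, 5447547 to 5455946, plus strand), which encodes FRA1, had 0 and 2 counts on soft and 0 and 0 on stiff at 0 h, and 6 and 3 on soft and 1 and 4 on stiff at 2 h. On soft its ratio of 2 h to 0 h was 5.61 (95% exact interval 1.16 to 53.4, counting error only). The stiff groups were on average at or under 3 counts per library, so no ratio is given.

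The 3 JUN genes differed from each other. Junb (chromosome 8, 84974484 to 84978718, minus strand) was at 14.3 and 14.3 CPM on soft and 14.5 and 12.7 CPM on stiff at 0 h, at 28.7 and 28.0 CPM on soft and 40.7 and 30.6 CPM on stiff at 2 h, and at 13.5 and 14.3 CPM on soft and 17.5 and 13.5 CPM on stiff at 12 h. The 2 h libraries lay above all others, with a rise of 1.98-fold on soft (log2 0.98 ± 0.13, adjusted p = 6.83e-06) and 2.64-fold on stiff (1.40 ± 0.12, adjusted p = 2.12e-09). Between 2 h and 12 h Junb fell by 1.03 ± 0.13 and 1.20 ± 0.12 on the log2 scale (adjusted p = 4.89e-07 and 1.22e-08). Junb overlaps Prdx2 on the other strand, whose own level stayed at 216 to 252 CPM over the 12 libraries. Jun (chromosome 4, 95049034 to 95052222, minus strand) was at 2.30 and 1.77 CPM on soft and 1.56 and 1.91 CPM on stiff at 0 h, at 2.57 and 1.67 CPM on soft and 2.48 and 3.02 CPM on stiff at 2 h, and at 1.65 and 2.02 CPM on soft and 1.80 and 1.15 CPM on stiff at 12 h. Its soft groups overlapped, and only its difference between 12 h and 2 h on stiff was called (log2 fold change -0.87 ± 0.33, adjusted p = 0.0386). That call was lost in DESeq2 (adjusted p = 0.10) and without stiff replicate 2 at 12 h (0.266) or stiff replicate 1 or 2 at 2 h (0.0537 and 0.178). Jund (chromosome 8, 70698949 to 70700616, plus strand), which in many cell types is made constantly, ranged from 17.8 to 24.6 CPM over the 12 libraries. No time comparison of Jund was called, with log2 fold changes between -0.15 ± 0.11 and 0.17 ± 0.12. Without soft replicate 2 at 12 h, its 12 h level on soft was called as lower (log2 fold change -0.38, adjusted p = 0.0358).

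Ier2 (chromosome 8, 84661331 to 84662852, minus strand) was the one gene called as higher at 12 h than at 0 h on either substrate. It was at 47.1 and 47.2 CPM on soft and 48.1 and 49.0 CPM on stiff at 0 h, at 56.3 and 59.6 CPM on soft and 71.6 and 70.0 CPM on stiff at 2 h, and at 60.7 and 57.2 CPM on soft and 66.7 and 62.7 CPM on stiff at 12 h. On both substrates the 0 h libraries were the lowest, and the 2 h and 12 h libraries of soft overlapped. At 2 h the rise was 1.23-fold on soft (log2 0.30 ± 0.07, adjusted p = 0.0132) and 1.46-fold on stiff (0.54 ± 0.06, adjusted p = 1.12e-06). At 12 h it was 1.25-fold (0.32 ± 0.07, adjusted p = 0.000507) and 1.33-fold (0.42 ± 0.07, adjusted p = 1.19e-05) over 0 h. Ier2 has 60.9% G and C, and 371 tested genes, Ier2 among them, lay within 1 percentage point of that. Their median log2 fold change at 12 h was 0.20 on soft (quartiles 0.007 and 0.40) and 0.25 on stiff (-0.014 and 0.47). The 12 h changes of Ier2 lay within these quartiles, and the part of base composition was not tested. The small rise on soft at 2 h was not called without soft replicate 1 or 2 at 0 h (adjusted p = 0.114 and 0.0871) or replicate 2 at 2 h (0.195).

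The comparison of substrates asked whether these genes depend on stiffness, before and after ERK signalling is released. At 0 h none of the 8 tested genes was called between soft and stiff, beside 0.0298% of all genes, and 0 of 8 had an unadjusted p under 0.05 in edgeR or DESeq2. At 2 h, 2 of 8 were lower on soft than on stiff, Egr1 and Fos, beside 0.134% of all genes. The levels of Egr1 on soft were 0.40-fold those on stiff (log2 -1.33 ± 0.14, adjusted p = 1.58e-06) and those of Fos 0.53-fold (-0.93 ± 0.18, adjusted p = 0.0224), and neither overlapped between substrates. Ier2 also lay lower in both soft libraries (log2 -0.29 ± 0.07) but missed the threshold (adjusted p = 0.0795), as did Fosl2 (-1.67 ± 0.55) and Junb (-0.33 ± 0.11), both with an adjusted p of 0.353. Jund was at 0.04 ± 0.12 (adjusted p = 0.961). At 12 h none was called by either tool, beside 0.767% of all genes in edgeR, and 1 of 8 had an unadjusted p under 0.05 in edgeR and 0 in DESeq2.

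The difference of Egr1 was called in 9 of 10 alternatives. In DESeq2, which gave the same log2 fold change with an SE of 0.85, its adjusted p was 0.96, the highest of a range that began at 1.94e-30. That of Fos was called in 6 of 10 and was lost without soft replicate 1 or 2 or stiff replicate 2 at 2 h (adjusted p = 0.278, 0.205 and 0.281), and DESeq2 gave it no adjusted p (unadjusted p = 0.000267).

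The test of the response itself, the change from 0 h on soft minus that on stiff, called none of the 8 genes at 2 h or at 12 h, beside 0.00745% (1 gene) and 0% of all genes. At 2 h, edgeR gave an unadjusted p under 0.05 for 4 of 8 genes and DESeq2 for 3, with an adjusted p of 0.992 in edgeR for each of the 4. Their differences in response were -1.18 ± 0.33 for Fos, -2.12 ± 0.88 for Fosl2, -0.42 ± 0.18 for Junb and -0.25 ± 0.09 for Ier2 (log2), all smaller on soft. The share of all genes at an unadjusted p under 0.05 was not counted for any comparison of PD03 removal, so these counts have no background beside them. For Egr1 the difference was -1.04 ± 1.41, since its response rests on 7 reads at 0 h. At 12 h no gene had an unadjusted p under 0.05 in either tool. The 2 h levels of Egr1 and Fos were thus called between substrates, whereas the differences in their responses were not.

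**Figure D2:**
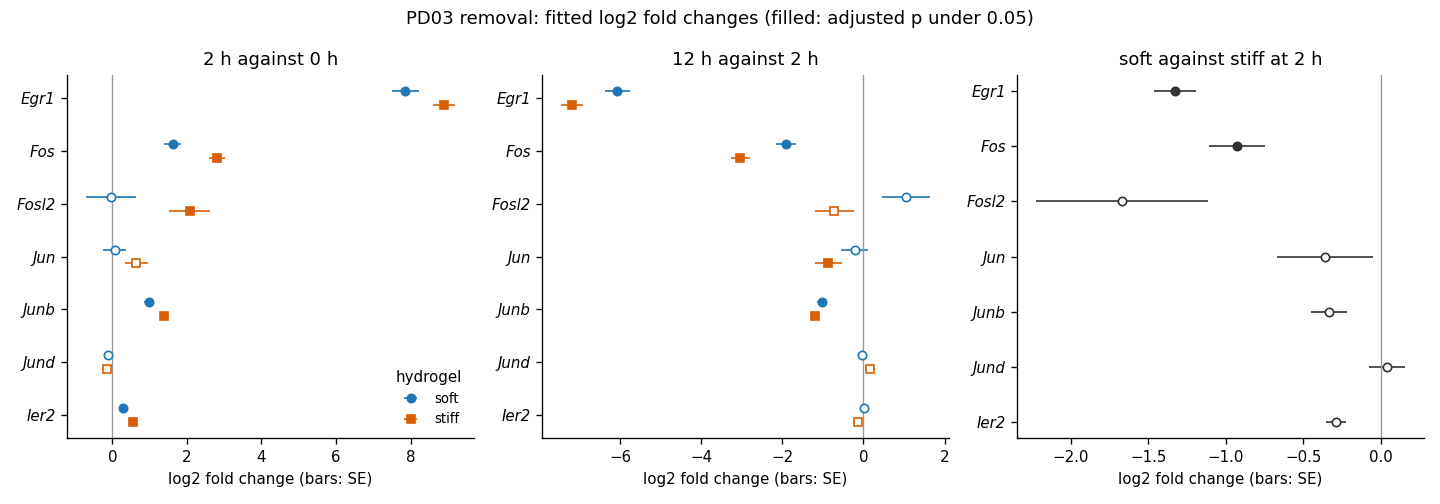
Fitted log2 fold changes (x axis) of 7 genes (y axis) after PD03 removal, with bars for the SE and filled symbols for an adjusted p under 0.05. Left and middle panels show soft as circles and stiff as squares, and the right panel soft against stiff at 2 h, where Egr1 lay at -1.33 and Fos at -0.93. Egr2 is not drawn because its stiff libraries were at 0 counts at 0 h and 12 h.

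Promoter windows of RefSeq (GRCm38.p6) spanned 300 bases, from 250 before to 50 after a start site. Those of 6 of the 10 genes were used (Egr2, Fos, Fosl2, Jun, Junb and Jund). No window of Egr1, Egr3, Fosl1 or Ier2 was used, so the motif results say nothing about these genes. The windows were searched on both strands for 5 motifs, and matches are a description of letters, not of binding. A CArG box (CC, then 6 bases that are A or T, then GG), the core of an SRF site, was in 1.63% of 32851 windows. Egr2 has 5 windows, of which 3 overlap almost fully, and they held 2 distinct boxes. One, CCATATATGG at chr10:67537797-67537806, was in the 3 overlapping windows, 72 to 133 bases before their start sites, and the other, CCTTTTTTGG at chr10:67537494-67537503, was in 1 window, 72 bases before its start site. The windows of the other 5 genes held none. An EGR site (GCGTGGGCG or GCGGGGGCG), in 3.47% of windows, was 79 bases before the start site of Fosl2. No AP-1 site (TGACTCA or TGAGTCA), CRE (TGACGTCA) or ETS site (CCGGAAGT) was in any window of the 6 genes, beside 5.2%, 1.79% and 3.89% of all windows, and no match shared letters with a match of another motif. The start site of the Jund window lies 1210 bases before the Jund gene as annotated above, so that this window does not cover the annotated start. Start sites of the Egr2 windows with a box lie 2091 to 2455 bases inside Egr2 as annotated above. That of the Fosl2 window lies 671 bases inside Fosl2. The Egr2 window whose start site is 24 bases from the annotated start held none of the 5 motifs. The 200 bases before the start site are shown for Fos and Junb, which rose and fell on both substrates, and for Egr2 and Fosl2, which hold a motif, with the motif in capitals.
Fos, chr12:85473690-85473889, plus strand: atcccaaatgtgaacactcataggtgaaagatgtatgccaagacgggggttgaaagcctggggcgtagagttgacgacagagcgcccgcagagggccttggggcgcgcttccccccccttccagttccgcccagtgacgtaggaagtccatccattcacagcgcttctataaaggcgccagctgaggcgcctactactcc
Junb, chr8:84978749-84978948, minus strand: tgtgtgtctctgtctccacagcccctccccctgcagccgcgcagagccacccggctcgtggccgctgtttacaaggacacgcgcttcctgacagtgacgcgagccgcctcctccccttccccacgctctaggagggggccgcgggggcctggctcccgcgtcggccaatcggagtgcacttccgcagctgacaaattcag
Egr2, chr10:67537669-67537868, plus strand: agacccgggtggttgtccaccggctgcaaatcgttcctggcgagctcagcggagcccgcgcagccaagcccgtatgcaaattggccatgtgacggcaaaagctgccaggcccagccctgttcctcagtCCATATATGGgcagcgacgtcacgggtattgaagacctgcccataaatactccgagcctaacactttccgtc
Fosl2, chr5:32136272-32136471, plus strand: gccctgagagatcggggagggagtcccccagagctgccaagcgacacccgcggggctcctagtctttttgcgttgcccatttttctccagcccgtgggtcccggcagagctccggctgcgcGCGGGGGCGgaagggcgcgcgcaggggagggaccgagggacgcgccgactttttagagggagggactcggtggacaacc

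Fos and Junb, which rose with no CArG box in these stretches, had 58.5% and 68% G and C there, and Egr2 had 59%. Fosl2, with the EGR site, had 69%. The stretches end at the base before the start site, and elements farther away were not searched.

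Genes that work with the 10 moved in part at 2 h, beside 1.96% of all genes called on soft and 2.73% on stiff. Of the 6 SRF and ternary complex factor genes, 1 rose at 2 h on each substrate, Srf itself (log2 0.25 ± 0.07 on soft, adjusted p = 0.0392, and 0.29 ± 0.06 on stiff, adjusted p = 0.00539), and none fell. Of the EGR partners, Nab2, a corepressor that EGR1 induces and that binds it, rose (1.27 ± 0.12 on soft, adjusted p = 3.36e-08, and 1.51 ± 0.11 on stiff, adjusted p = 8.31e-11), and was 1 of 2 tested. Nab2 was also lower on soft than on stiff at 2 h (-0.53 ± 0.11, adjusted p = 0.0234). Among 7 tested AP-1 partners, Maff, a small MAF factor, was the 1 that rose (1.82 ± 0.25 on soft, adjusted p = 1.89e-05, and 2.42 ± 0.25 on stiff, adjusted p = 1.07e-07).

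Of 20 tested other immediate early genes, 7 rose and 1 fell on soft in the first 2 h, while stiff had 8 that rose and 2 that fell. Over all genes, 1.96% on soft and 2.73% on stiff were called in either direction. The 4 with the lowest adjusted p on stiff were Zfp36l1, which encodes an RNA-binding protein that destabilises AU-rich transcripts (log2 0.65 ± 0.06, adjusted p = 3.89e-08), Cyr61, a matricellular protein (0.92 ± 0.09, adjusted p = 5.02e-08), Phlda1 (2.17 ± 0.25, adjusted p = 4.51e-07) and Plk3, a kinase (1.01 ± 0.12, adjusted p = 1.79e-06). Csrnp1, named after its values were seen, had the same adjusted p as Plk3 and a higher unadjusted p (6.09e-09 against 5.98e-09). On soft, Zfp36l1 (0.46 ± 0.07, adjusted p = 4.93e-05) and Cyr61 (0.69 ± 0.10, adjusted p = 2.61e-05) rose too. So did Phlda1 (2.16 ± 0.29, adjusted p = 1.6e-05) and Plk3 (0.68 ± 0.14, adjusted p = 0.00342). From 2 h to 12 h, 10 of the 20 fell and 4 rose on soft, and 13 fell and 3 rose on stiff, beside the 31.4% and 37.5% of all genes called. The median log2 fold change of the list at 2 h was -0.00218 on soft and 0.41 on stiff.

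The 5 genes whose log2 CPM followed Egr1 most closely over the 12 libraries were Dusp5 (Pearson r = 0.979), an ERK phosphatase, Maff (0.972), Nab2 (0.968), Txnip (0.965) and Junb (0.963). Among the genes described here, r with Egr1 was 0.944 for Fos, 0.912 for Egr2, 0.643 for Ier2, 0.557 for Jun, 0.473 for Fosl2 and -0.285 for Jund. These correlations share libraries and depth and describe 6 groups rather than 12 independent points.

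After CHIRON removal, with PD03 still present, none of the 8 tested genes was called at 2 h against 0 h on either substrate, beside 0.226% of all 14615 genes on soft and 0.103% on stiff. An unadjusted p under 0.05 was given for 2 of 8 genes on soft and 2 of 8 on stiff by edgeR, and for 1 and 1 by DESeq2, which also called none. Egr1 was at 1.48 and 1.78 CPM on soft and 1.25 and 1.14 CPM on stiff at 0 h, at 2.25 and 1.66 CPM on soft and 2.27 CPM on stiff at 2 h, and at 2.29 and 1.47 CPM on soft and 2.00 and 2.61 CPM on stiff at 12 h. Its soft groups overlapped at all times, and its log2 fold change on stiff at 12 h was 0.94 ± 0.36 (adjusted p = 0.085). Fos was at 1.18 and 1.26 CPM on soft and 1.68 and 1.30 CPM on stiff at 0 h, at 0.79 and 0.70 CPM on soft and 0.93 CPM on stiff at 2 h, and at 0.79 and 0.77 CPM on soft and 0.82 and 0.69 CPM on stiff at 12 h. All of its later libraries lay below those of 0 h, with changes of -0.71 ± 0.45 and -0.64 ± 0.43 (log2) on soft and -0.69 ± 0.52 and -0.97 ± 0.44 on stiff at 2 h and 12 h, none of which was called. The stiff value at 2 h rests on 1 library, which the fit assumed to vary like the other groups. For CHIRON removal too, the share of all genes at an unadjusted p under 0.05 was not counted for any comparison.

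The rare genes stayed rare. Egr2 had at most 6 counts and Egr3 at most 6 counts in any library of CHIRON removal, Fosl1 ranged from 0.12 to 0.76 CPM and Fosl2 from 0.38 to 1.25 CPM. Ier2 was at 54.9 to 76.9 CPM, with log2 fold changes between -0.23 ± 0.12 and -0.08 ± 0.10 and none called.

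**Figure D3:**
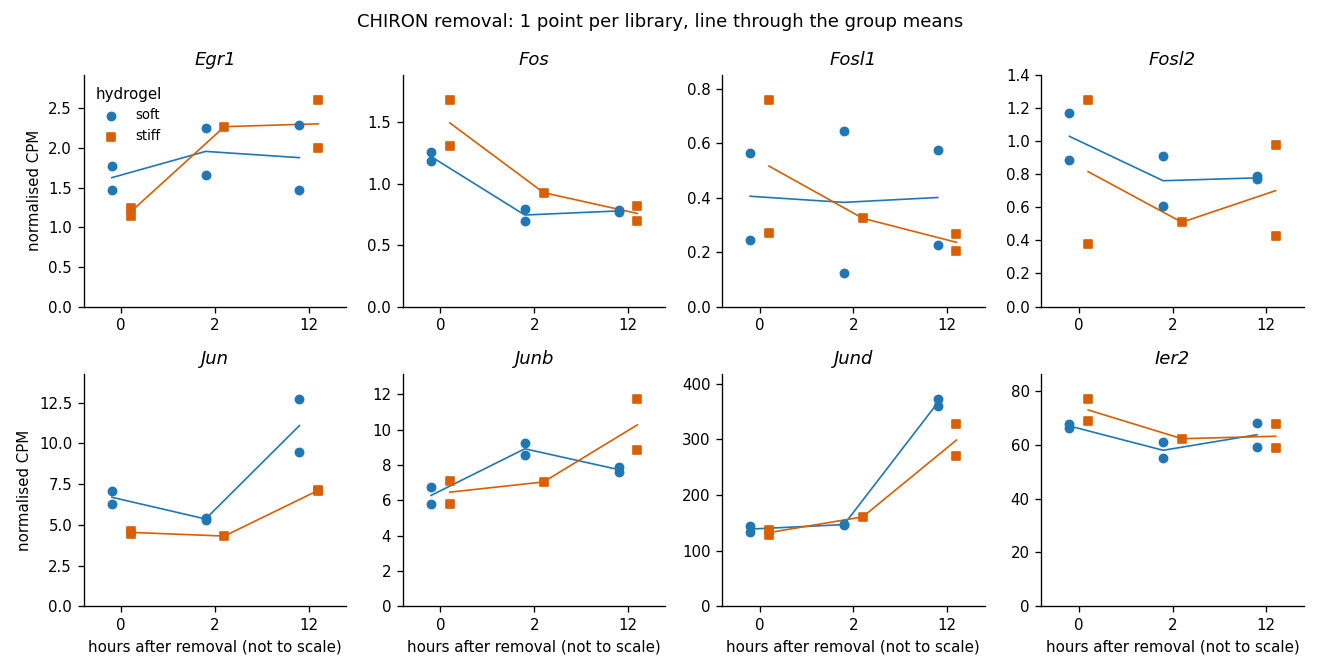
Normalised CPM (y axis, from 0, a scale for each gene) of 8 genes at 0, 2 and 12 h after CHIRON removal (x axis, not to scale). Circles are soft and squares stiff libraries, 2 per group except 1 for stiff at 2 h, and lines join group means. Jund rose from 128 to 144 CPM at 0 h to 270 to 372 CPM at 12 h, and Egr1 stayed between 1.14 and 2.61 CPM.

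At 12 h after CHIRON removal Jund and Jun rose on both substrates and Junb on stiff. These were 2 of 8 genes on soft, beside 17.8% of all genes, and 3 of 8 on stiff, beside 16.8%, and none fell. Jund was at 144 and 133 CPM on soft and 137 and 128 CPM on stiff at 0 h, at 148 and 146 CPM on soft and 161 CPM on stiff at 2 h, and at 372 and 360 CPM on soft and 270 and 328 CPM on stiff at 12 h. Every 12 h library lay above every earlier one. The rise was 2.64-fold on soft (log2 1.40 ± 0.09, adjusted p = 4.92e-09) and 2.26-fold on stiff (1.17 ± 0.09, adjusted p = 6.23e-08). Jund is a single-exon gene with 67.1% G and C, and 27 tested genes, Jund itself among them, lay within 1 percentage point of that. Their median change was 0.35 on soft and 0.33 on stiff (log2), beside -0.01 and -0.01 over all genes. The antisense gene Gm11175 that overlaps Jund had at most 9 counts in a library, and the part of base composition in the rise was not tested. The rise was called in 11 of 12 alternatives on each substrate, those without either 12 h library among them. With the discarded library added, the log2 fold changes were 1.41 and 1.18 and were not called (adjusted p = 0.617 and 0.756).

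Jun, the partner most often named with Fos, was at 7.09 and 6.29 CPM on soft and 4.45 and 4.62 CPM on stiff at 0 h, at 5.30 and 5.41 CPM on soft and 4.31 CPM on stiff at 2 h, and at 12.7 and 9.47 CPM on soft and 7.13 and 7.09 CPM on stiff at 12 h. The 12 h libraries lay above those of 0 h on each substrate, by 1.68-fold on soft (log2 0.75 ± 0.17, adjusted p = 0.00562) and 1.57-fold on stiff (0.65 ± 0.19, adjusted p = 0.0258). Junb was at 6.74 and 5.81 CPM on soft and 7.11 and 5.81 CPM on stiff at 0 h, at 9.26 and 8.58 CPM on soft and 7.04 CPM on stiff at 2 h, and at 7.61 and 7.87 CPM on soft and 8.82 and 11.7 CPM on stiff at 12 h. It rose 1.59-fold on stiff (0.67 ± 0.18, adjusted p = 0.0155), with 0.30 ± 0.18 on soft (adjusted p = 0.284). On soft the call of Jun was lost without replicate 2 at 0 h or replicate 1 at 12 h. On stiff it was lost without replicate 1 or 2 at 0 h or at 12 h, and that of Junb without replicate 2 at 0 h or at 12 h. With the discarded library added, these calls were lost on both substrates.

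**Figure D4:**
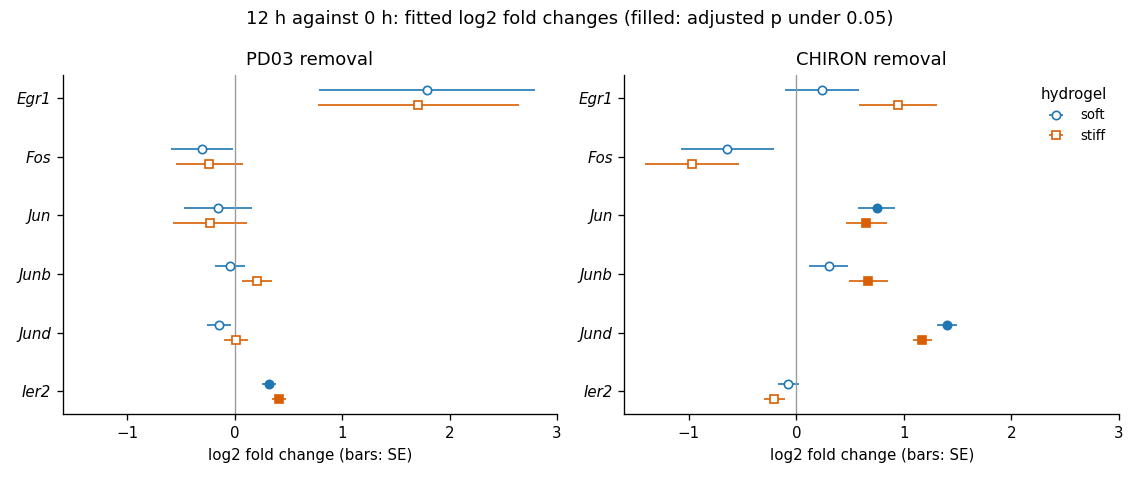
Fitted log2 fold changes (x axis) at 12 h against 0 h of 6 genes (y axis) after PD03 removal (left) and CHIRON removal (right), with bars for the SE and filled symbols for an adjusted p under 0.05. Ier2 was the gene called after PD03 removal (0.32 on soft, 0.42 on stiff), and Jund (1.40 and 1.17), Jun (0.75 and 0.65) and, on stiff, Junb (0.67) were called after CHIRON removal. The panels come from separate fits and were not tested against each other.

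No difference between soft and stiff was called at 0 h, 2 h or 12 h after CHIRON removal, nor for the responses at 2 h and 12 h. In each of these 5 comparisons edgeR and DESeq2 called 0 of the 8 genes, and edgeR called 0% of all genes. At an unadjusted p under 0.05 edgeR gave 1 gene at 0 h, 0 at 2 h, 3 at 12 h and 0 for both responses, and DESeq2 gave 1, 0, 2, 0 and 0. Those of edgeR were Jun at 0 h (log2 0.56 ± 0.19, higher on soft) and Jun (0.66 ± 0.17), Jund (0.29 ± 0.09) and Junb (-0.41 ± 0.18) at 12 h, each with an adjusted p of 0.999. Jun was higher in both soft libraries than in both stiff libraries at 0 h and at 12 h, and the difference between its responses at 12 h was 0.10 ± 0.26.

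Of the other lists at 2 h after CHIRON removal, edgeR called none of 6 SRF and ternary complex factor genes, 3 EGR partners, 7 AP-1 partners and 21 other immediate early genes on either substrate. At an unadjusted p under 0.05 were 1 of the AP-1 partners on soft, and 10 of the 21 on soft and 4 on stiff. The share of all genes at that threshold was not counted, so these numbers have no background beside them. At 12 h, 6 of the 21 other immediate early genes rose and 3 fell on soft, and 6 rose and 4 fell on stiff, beside the 17.8% and 16.8% of all genes called. Phlda1 and Zfp36l1, which rose on both substrates at 2 h after PD03 removal, fell at 12 h after CHIRON removal, by 0.98 ± 0.13 and 0.77 ± 0.11 on soft and by 1.15 ± 0.14 and 0.58 ± 0.11 on stiff (log2, adjusted p = 4.72e-05, 6.23e-05, 8.14e-06 and 0.00102). Plk3 rose (0.69 ± 0.10 on soft, adjusted p = 5.97e-05, and 0.74 ± 0.10 on stiff, adjusted p = 3.2e-05), as did Nab2 (0.92 ± 0.10, adjusted p = 5.41e-06, and 0.90 ± 0.11, adjusted p = 8.27e-06).

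Per kilobase of exon, the order of the genes on soft hydrogels changed with time after PD03 removal. At 0 h it was Ier2 (31.0 CPM per kilobase), Jund (13.9), Junb (6.22), Fos (0.89) and Jun (0.64), with Fosl2, Fosl1, Egr2 and Egr1 between 0.021 and 0.045 and overlapping with each other, and Egr3 at 0. At 2 h Egr1 stood at 5.13 on soft, above Fos (2.76) and below Junb (12.3), whose range overlapped with that of Jund (12.8). On stiff at 2 h Egr1 stood at 12.9, between Junb (15.5) and Jund (12.4), and its range overlapped with those of both. After CHIRON removal Jund led at all times on soft, with 83.2 CPM per kilobase at 0 h, 88.0 at 2 h and 219 at 12 h, followed by Ier2 with 44.0, 38.1 and 41.9. Jun (3.48) and Junb (3.36) overlapped at 12 h.

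The 0 h cells of both experiments were in the same medium, but their counts came in separate tables that were normalised separately, and the levels are set side by side without a test. Jund had a mean of 23.1 CPM at 0 h in PD03 removal and 136 CPM in CHIRON removal, Jun 1.89 and 5.61 CPM, and Ier2 47.8 and 70.0 CPM, whereas Junb had 14.0 and 6.37 CPM and Fos 1.95 and 1.36 CPM. Prdx2, which overlaps Junb on the other strand, was at 216 to 252 CPM over the libraries of PD03 removal and at 86.7 to 102 CPM over those of CHIRON removal, and its part in the level of Junb was not tested. The log2 ratio of CHIRON removal to PD03 removal was 2.55 for Jund. The 20 genes of like G and C content, Jund itself among them, had a median of 0.07, beside -0.31 over 11820 genes above 1 CPM in both. Only 1.7% of these genes had a higher ratio than Jund. Egr1 was not among them, as its 0 h level in PD03 removal was under 1 CPM. Its mean at 0 h was 0.095 CPM on soft and 0.13 CPM on stiff there, and 1.63 and 1.19 CPM in CHIRON removal. The ratios of Egr1 over 0 h after PD03 removal rest on the lower of these levels, and the difference between the experiments was not tested.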

How the data were processed

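RNA of E14 mESCs was extracted with a genomic DNA digestion step, depleted of ribosomal RNA and made into libraries with Ribozero and Nextflex kits. Per the labels and the study's methods, the authors aligned reads to mm10 (GRCm38) with TopHat2 2.1.0 and counted reads per gene with featureCounts 1.5.0 and Ensembl annotation, and the deposited values are raw counts. Whether the counting used strand is not given in the sources used here, so reads of Junb, Jun, Jund and Fosl1 cannot be told from those of genes on the other strand. Symbols of PD03 removal were stripped of spaces. There, 23 blank lines and 12 columns of samples without labels here were left out, and 15 identifiers looked like dates. Against GENCODE M21, 34890 and 48349 genes matched, of which 19323 and 21695 were protein-coding.

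Protein-coding genes that passed filterByExpr of edgeR 4.0.16 (R 4.3.3) were normalised by TMM and fitted in 1 quasi-likelihood model per experiment with its 6 groups, with Benjamini-Hochberg adjustment over all genes tested (threshold 0.05). The SE of a log2 fold change was taken as its absolute value over the root of the F statistic. The biological coefficient of variation was 0.0386 in PD03 removal and 0.0797 in CHIRON removal. CPM used the TMM library sizes. Ratios of groups near 0 counts have exact conditional 95% intervals, or a bound at 3 counts per library, and cover counting error only. Alternatives were DESeq2 1.42.0, its size factors, no low-count filter, all genes, only the groups compared, a replicate block, the discarded library added, and leaving out each library. The genes and lists were chosen with earlier results of these data known. All 10 genes were to be named, and of other lists at most 4 called genes with the lowest adjusted p at 2 h on stiff after PD03 removal. The labels do not say that replicates came from separate cultures, so p-values measure the spread between these libraries, which may be technical. Counts of replicates differed by more than sampling noise (2.65 to 58.5 as the ratio of chi-square to its degrees of freedom), so none was counted as a copy. Promoter sequences are from RefSeq (GRCm38.p6).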

Additional observations from a re-analysis of the deposited data

How the results depend on the processing

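For the number of the 10 genes called in each of 20 comparisons, 214 of 228 alternative values lay within 1.5 times the reported number. DESeq2 called 3 genes in place of 5 at 12 h against 2 h on stiff after PD03 removal and 0 in place of 2 for soft against stiff at 2 h. It gave no adjusted p for 1 of the 8 tested genes in the first and for 4 of 8, Fos among them, in the second. With all 12 libraries of CHIRON removal, 0 were called at 12 h against 0 h on soft (2 reported) and 0 on stiff (3 reported). These differences in the calls follow the alternative, and the cause was not tested. Leaving out 1 library at a time, with the lone library left in a group assumed to vary like the other groups, gave 1 to 2 genes at 12 h against 0 h on soft and 1 to 2 on stiff after PD03 removal (1 and 1 reported), 1 to 2 for soft against stiff at 2 h (2 reported), 3 to 4 at 2 h and 3 to 4 at 12 h against 2 h on soft (4 and 4 reported), 4 to 5 of 6 at 2 h and 4 to 5 of 5 at 12 h against 2 h on stiff, and, after CHIRON removal, 1 to 2 of 2 on soft and 1 to 2 of 3 on stiff at 12 h. The other comparisons had 0 each time. The lone library of stiff at 2 h after CHIRON removal could not be left out.

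Of 322 alternative values of the 32 single-gene results called in any setting, 281 kept direction and call, 36 lost the call, 4 gained it and 1 changed sign. The last was Jund at 12 h against 0 h on soft after PD03 removal, at 0.048 (log2) without soft replicate 1 at 12 h, where it was not called, and at -0.378 without replicate 2. Among 1479 alternative values never called, 100 changed sign. Mean levels by DESeq2 size factors were 0.997 to 1.003 times those given.

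With the replicate number of the titles as a replicate block, the number of genes called was the reported one in 20 of 20 comparisons (4 and 6 at 2 h against 0 h on soft and stiff after PD03 removal). The numbers did not pair the samples: deviations of same-numbered libraries correlated at -0.0524 to 0.112 over 15 pairs of groups in PD03 removal and at -0.109 to 0.0713 over 10 in CHIRON removal. A replicate block by tube digit gave 2 and 3 genes at 12 h after CHIRON removal. Transcripts of few counts per library, as of Egr2, Egr3 and Fosl1 (at most 11, 6 and 14 in any library), are at the limit of this depth.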
